A study of Mus musculus with 12 samples.

Results

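Mmp12, Ptx3 and Crip1 are 3 of the 770 genes measured in sorted microglia of adult and aged mice. They were chosen from these data for their large rises from adult microglia to aged microglia with low phosphorylation of the kinases ERK1/2, so the difference between these groups is a description here and carries no test. On the log2(signal + 1) scale used throughout, Mmp12 had the largest rise of the 770 genes at 3.06, Ptx3 the second largest at 2.93 and Crip1 the fifth largest at 2.40. Ccl7 at 2.61 and Cd36 at 2.48 stood between Ptx3 and Crip1, and Cd72 followed Crip1 at 2.32. Ccl7 was above background in 0 of 3 adult samples, so its rise is only a bound, at least 3.67-fold with the adult values raised to background, and its rank is uncertain.

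Mmp12 encodes macrophage metalloelastase, a secreted zinc protease that cleaves elastin and other matrix proteins and is made mainly by macrophages. Ptx3 encodes the long pentraxin PTX3, a soluble pattern recognition molecule that binds microbes and complement C1q and is produced by myeloid and stromal cells after IL-1, TNF or Toll-like receptor ligands. Crip1 encodes a small cysteine-rich protein of the LIM-domain family, which binds zinc. Microglia are the resident macrophages of the CNS, and phosphorylation of ERK1/2 in the MAP kinase cascade is a signal downstream of many growth factor and cytokine receptors.

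RNA was counted with the NanoString nCounter Neuroinflammation panel, in which color-coded probes are counted without amplification, and each value is a signal normalized by the authors to housekeeping genes. All groups were of the C57B6 strain, and every sample held the CNS of a male and a female mouse. Cells were collected with CD11b beads, fixed, permeabilized, stained for P-ERK1/2 and gated as CD45 intermediate, Ly6G-negative cells with the YFP reporter. There were 4 samples of P-ERK1/2 High microglia and 4 of P-ERK1/2 Low microglia, both from mice aged over 80 weeks, and 3 samples of adult microglia from mice of 12 to 20 weeks that were not separated by ERK1/2 phosphorylation. A further adult sample, number 11, was labelled as excluded for poor quality and is given apart. The YFP reporter is driven by the Cx3cr1 promoter, which is also active in other myeloid cells, and the labels give no Cre or floxed allele for these mice. The study states a longer time since tamoxifen for aged than for adult mice, while the labels call the mice untreated, so age and this interval, where it applies, cannot be told apart. Because adult microglia were not split by P-ERK1/2, each aged group was set against a mixed adult population. The samples are the replicates, so the tests measure the spread between these pools, and the sources do not say whether a P-ERK1/2 High and a P-ERK1/2 Low sample came from the same animals. In such bulk samples, fewer cells of a type and less RNA per cell cannot be told apart.

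The samples differed in more than their groups. The gene counts recovered from the signals totalled 650965 to 1539936 per sample for P-ERK1/2 High, against 123798 to 157209 for P-ERK1/2 Low and 137980 to 326575 for adult microglia. The 10 microglia markers summed to a signal of 7124 to 8168 in adult microglia, 9141 to 10391 in P-ERK1/2 Low samples and 7515 to 11042 in P-ERK1/2 High. Apart from the sum, the median of the 10 genes was -0.70 in P-ERK1/2 Low against adult microglia, with 0.10 over all genes. Of the 10, 0 were called higher there and 3 lower (8.05% and 2.73% of all genes). The lower ones were Fcrls (-2.31, the largest fall of the 770 genes), Olfml3 (-1.56) and Tmem119, which was above background in 1 of 4 P-ERK1/2 Low samples. In P-ERK1/2 High against adult microglia, 2 were called higher and 2 lower (29.2% and 7.66% of all genes). Fcrls (-1.57) and Olfml3 (-1.65) were again the lower ones. P2ry12 and Gpr34 did not exceed background in any P-ERK1/2 Low sample, whereas all 10 exceeded it in every P-ERK1/2 High sample, where background itself was lower (26.1 to 39.5 against 69.2 to 117). The signals of the 7 astrocyte markers summed to 487 to 688 in adult microglia, 602 to 870 in P-ERK1/2 Low samples, and 1431 to 2156 in P-ERK1/2 High samples. Gja1, Sox9 and Kcnj10 were called higher in P-ERK1/2 High than in P-ERK1/2 Low, by 1.32, 1.95 and 1.96. Gdpd2 was called lower (-1.10) but exceeded background in no sample. Without a call, Slc1a3 (-0.998) and S100b (-0.45) were lower and Aldh1l1 (0.67) higher. In P-ERK1/2 Low, 5 of the 7 exceeded background in no sample. The 7 endothelial markers summed to 342 to 497, 252 to 398 and 702 to 1483 in the same order, the 13 T and NK cell markers to 189.8 to 385, 225 to 316 and 368 to 1232, and the 6 neuron markers to 130.4 to 229.8, 166 to 238 and 256 to 466. The neuron sum was carried by Rbfox3 and Syn2, while the median of the 6 genes in P-ERK1/2 High was -0.44 against P-ERK1/2 Low and -0.17 against adult microglia, and all 6 were below background in every adult and P-ERK1/2 Low sample. The 6 neutrophil markers ran the other way from adult to P-ERK1/2 Low, with sums of 674 to 1114 in adult, 402 to 495 in P-ERK1/2 Low samples and 300.3 to 780.4 in P-ERK1/2 High, and Lcn2 was called lower than in adult microglia in P-ERK1/2 Low (-1.54) and in P-ERK1/2 High (-2.39). Trem3 of the same list was called higher in P-ERK1/2 High than in both other groups, by at least 1.61-fold over P-ERK1/2 Low, where 0 of 4 samples were above background, and at least 2.17-fold over adult microglia. Monocyte and border macrophage markers (8 genes) summed to 404 to 538 in adult microglia, 634 to 782 in P-ERK1/2 Low samples and 580 to 702 in P-ERK1/2 High, and of these Cd209e, Marco and Ms4a4a were above background in no sample of any group. The 8 oligodendrocyte markers summed to 314 to 511 in adult microglia, 357 to 477 in P-ERK1/2 Low samples and 285 to 421 in P-ERK1/2 High. Their median in P-ERK1/2 High was -0.30 against P-ERK1/2 Low and -0.34 against adult microglia. The part of depth and of these markers in the results below was not tested.

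In 2 samples the 3 genes stood apart from their group. In P-ERK1/2 High sample 7, Mmp12 was 3.15 log2 units below the mean of the other 3 P-ERK1/2 High samples, the lowest such difference of the 770 genes, Ptx3 was 2.19 below it and Crip1 was 2.17 below it, while the median gene differed by -0.08. In the excluded adult sample 11, Mmp12 was 4.89 above the mean of the other adult samples, Crip1 was 2.40 above it and Ptx3 was listed at 1, the lowest value in the table. The median gene of sample 11 was itself 0.61 above, and Mmp12 ranked 2 among the 770 rises and Crip1 ranked 95. Sample 11 had 16 genes listed at 1 against 0 in every other sample, and its positive control probes had a geometric mean of 286 counts against 954 to 1460 elsewhere. The differences of the 3 genes are given with and without these samples.

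The regions just upstream of the 3 genes are shown because the genes rose together from adult to P-ERK1/2 Low microglia and then parted in P-ERK1/2 High. In RefSeq on GRCm38.p6, all on the plus strand, Mmp12 has a start after chr9:7344147-7344396 and a second after chr9:7347124-7347373, Ptx3 starts after chr3:66219637-66219886 and Crip1 after chr12:113151762-113152011. Each line gives the 250 bases before a start, 5′ to 3′, with capitals for matches on either strand to the AP-1 motif TGANTCA, to TATAAA, to GAGGAA (the core bound by PU.1 and other ETS factors) or to the consensus for NF-kB.
Mmp12, start 1: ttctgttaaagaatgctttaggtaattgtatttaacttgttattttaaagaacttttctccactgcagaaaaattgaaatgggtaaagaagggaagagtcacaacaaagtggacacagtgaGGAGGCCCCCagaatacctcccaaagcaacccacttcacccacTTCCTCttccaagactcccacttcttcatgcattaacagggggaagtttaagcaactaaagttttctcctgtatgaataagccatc
Mmp12, start 2: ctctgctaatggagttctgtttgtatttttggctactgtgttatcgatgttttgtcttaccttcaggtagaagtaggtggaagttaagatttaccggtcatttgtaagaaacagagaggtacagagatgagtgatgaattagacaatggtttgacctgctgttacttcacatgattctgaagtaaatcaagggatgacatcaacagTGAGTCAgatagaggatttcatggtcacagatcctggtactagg
Ptx3: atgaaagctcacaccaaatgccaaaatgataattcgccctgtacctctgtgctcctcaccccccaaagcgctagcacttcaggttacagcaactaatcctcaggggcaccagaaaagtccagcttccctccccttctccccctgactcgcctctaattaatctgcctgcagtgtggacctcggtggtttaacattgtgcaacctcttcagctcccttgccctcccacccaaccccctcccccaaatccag
Crip1: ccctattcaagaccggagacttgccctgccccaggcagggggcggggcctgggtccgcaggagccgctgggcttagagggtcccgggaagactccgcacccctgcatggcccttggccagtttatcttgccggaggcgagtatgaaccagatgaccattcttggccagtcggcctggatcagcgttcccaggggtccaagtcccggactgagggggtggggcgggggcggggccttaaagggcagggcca
The window of the second Mmp12 start held an AP-1 match, TGAGTCA, at positions -44 to -38, found in 6.75% of the 32851 windows in the RefSeq table. The window of the first Mmp12 start held an NF-kB match at -129 to -120 (7.25% of windows) and a GAGGAA match at -86 to -81 (23.3% of windows). The Ptx3 and Crip1 windows held none of these letters, nor did any of the 4 windows hold TATAAA (12.4% of windows). Their GC content was 40.0% and 39.6% for Mmp12, 54.0% for Ptx3 and 67.2% for Crip1. A match describes the sequence and is not evidence of binding.

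Mmp12, the matrix protease, was low in adult microglia and high in both aged populations. Its normalized signal in adult samples 1, 4 and 10 was 2702, 5004 and 3027. In P-ERK1/2 Low samples 3, 6, 9 and 12 it was 27424, 28632, 25861 and 33597. In P-ERK1/2 High samples 2, 5, 7 and 8 it was 54885, 94274, 8502 and 83267. Every aged sample lay above every adult sample. Of all 770 genes, 26.1% lay higher without overlap in P-ERK1/2 Low than in adult microglia, and 35.1% did in P-ERK1/2 High. For Mmp12, 3 of 4 P-ERK1/2 High samples lay above all P-ERK1/2 Low samples, with sample 7 below all of them. The means were 3578 ± 1246 (SD, n = 3) in adult, 28879 ± 3344 (SD, n = 4) in P-ERK1/2 Low and 60232 ± 38271 (SD, n = 4) in P-ERK1/2 High microglia. Without sample 7 the P-ERK1/2 High mean was 77475 ± 20323 (SD, n = 3). Mmp12 was above background in all 12 samples, at 28.4 times background or more.

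Ptx3, the secreted pentraxin, was high in P-ERK1/2 Low microglia and low in both other groups. It was listed at 65.8, 79.2 and 84.0 in adult samples 1, 4 and 10. In P-ERK1/2 Low samples 3, 6, 9 and 12 it reached 535, 557, 514 and 763. In P-ERK1/2 High samples 2, 5, 7 and 8 it was 174, 52.9, 22.5 and 128. All P-ERK1/2 Low samples lay above all samples of the other groups, whereas P-ERK1/2 High and adult samples overlapped. The means were 76.3 ± 9.44 (SD, n = 3), 592 ± 115 (SD, n = 4) and 94.3 ± 69.2 (SD, n = 4), in the same order of groups. Ptx3 did not exceed background in adult sample 1, in P-ERK1/2 High sample 7 or in the excluded sample 11, so its low levels were close to background. Its counts behind these values were 29, 68 and 34 in adult, 158 to 192 in P-ERK1/2 Low samples and 20 to 143 in P-ERK1/2 High samples.

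Crip1, the LIM-domain protein, was low in adult microglia and of similar height in most aged samples. Its signal in adult samples 1, 4 and 10 was 197, 229 and 210.02. In P-ERK1/2 Low samples 3, 6, 9 and 12 it was 1044, 939.6, 1043 and 1555. In P-ERK1/2 High samples 2, 5, 7 and 8 it was 842, 1087, 214 and 998. P-ERK1/2 High sample 7 lay inside the adult range, while the other 3 P-ERK1/2 High samples lay above all adult samples and overlapped with P-ERK1/2 Low. The means were 212 ± 16.1 (SD, n = 3), 1145 ± 277 (SD, n = 4) and 786 ± 394 (SD, n = 4), the last becoming 976 ± 124 (SD, n = 3) without sample 7. Crip1 was above background in all 12 samples.

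**Figure D1:**
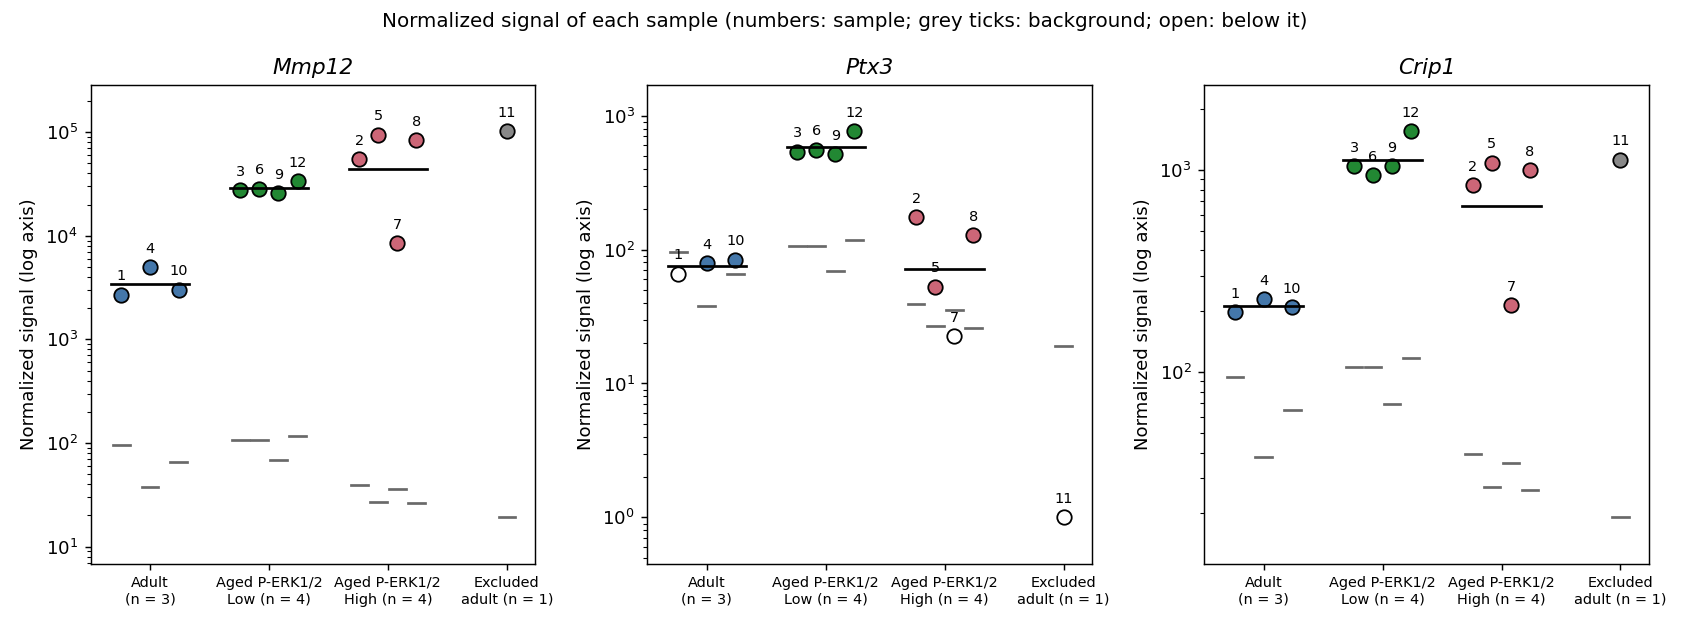
Normalized signal of Mmp12, Ptx3 and Crip1 (log axis) in each of the 12 samples, with the sample number beside each point, a black line at the group mean of the log2 values, a grey tick at the sample's background and open points for values below it. P-ERK1/2 High sample 7 lies below the other 3 samples of its group for all 3 genes, and excluded adult sample 11 has Mmp12 at 102170 and Crip1 at 1122.

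The step from adult to P-ERK1/2 Low microglia is the contrast that chose the genes. All 3 pass the threshold used for calls (limma p under 0.01 and a log2 difference beyond 1), as do 8.05% of the 770 genes as higher in P-ERK1/2 Low and 2.73% as lower, and nothing is read from the 3 calls. Those shares are 62 higher and 21 lower calls, which became 24 and 59 with equal sums, 52 and 35 with quantile normalization, 51 and 28 with median-of-ratios scaling, 55 and 59 with background subtraction and 8 and 213 with positive-control scaling. The rises correspond to 8.34-fold for Mmp12, 7.61-fold for Ptx3 and 5.28-fold for Crip1. For Ptx3, below background in adult sample 1, the bound is at least 6.74-fold with that sample raised to background. Adding the excluded adult sample moved the differences to 1.84 for Mmp12, 4.25 for Ptx3 and 1.80 for Crip1.

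Among aged microglia, Ptx3 was the gene with the largest fall of all 770 when P-ERK1/2 High was set against P-ERK1/2 Low. Its fall was 7.17-fold with sample 7, which was below background, raised to it. This value bounds the effect of background only, not the spread between samples or the scaling. As listed, the log2 difference was -3.00 (SE 0.51, 95% interval -4.13 to -1.88, limma adjusted p = 0.00056), and all 4 P-ERK1/2 High samples lay below all 4 P-ERK1/2 Low samples. Without sample 7 the difference was -2.46, or 5.49-fold (adjusted p = 0.00031). A plain test with unequal variances did not call it. Of the 3 genes, Ptx3 alone was called in this comparison, where 9.61% of the 770 genes were called lower, 28.2% were called higher and 18.1% lay lower without overlap. That balance of calls, 217 higher and 74 lower, moved with the scaling to 59 and 311 with equal sums, 146 and 142 with quantile normalization, 174 and 124 with median-of-ratios scaling, 361 and 4 with the 6 most stable housekeeping genes, 276 and 50 with background subtraction and 658 and 0 with positive-control scaling. The difference stayed below 0 under all 6 scalings and was at its smallest, -1.02, with scaling by the positive control probes, where it was not called. The P-ERK1/2 Low samples also took part in choosing the genes, so their high level enters this fall.

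With the deposited scaling and all samples, Mmp12 did not pass the test between the aged populations. The difference, P-ERK1/2 High minus P-ERK1/2 Low, was 0.61 (SE 0.61, 95% interval -0.73 to 1.94, limma adjusted p = 0.416). Without sample 7 it was 1.39 (SE 0.24, adjusted p = 0.00072), a 2.63-fold higher level that passed the threshold, as did 29.1% of genes as higher in that fit. The sign and the call also depended on the scaling when all samples were used. The difference was -0.42 and not called with equal sums, -1.36 and called lower after quantile normalization, and 2.60 and called higher with positive-control scaling.

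Crip1 did not pass the test between the aged populations either with the deposited scaling. Its difference was -0.75 (SE 0.45, 95% interval -1.74 to 0.23, limma adjusted p = 0.176), and -0.21 (95% interval -0.73 to 0.305, adjusted p = 0.459) without sample 7. It was -1.78 and called lower with equal sums, 1.23 and called higher with positive-control scaling, and 0.017 without a call on the 6 most stable housekeeping genes.

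Against adult microglia, P-ERK1/2 High microglia had the largest rise of the 770 genes in Mmp12. Mmp12 was 12.7-fold higher, a log2 difference of 3.67 (SE 0.71, 95% interval 2.10 to 5.23, limma adjusted p = 0.0019), with no overlap of the groups, and 4.45 (adjusted p = 3.0e-05) without sample 7. Of the 3 genes, Mmp12 and Crip1 were called higher, as were 29.2% of all genes, while 7.66% were called lower and 35.1% of genes lay higher without overlap. These calls, 225 higher and 59 lower, became 40 and 361 with equal sums, 142 and 139 with quantile normalization, 163 and 119 with median-of-ratios scaling, 352 and 5 with the 6 most stable housekeeping genes and 420 and 1 with positive-control scaling. The difference of Mmp12 ranged from 2.14 to 4.84 over the 6 scalings, and the plain test with unequal variances lost its call. With the excluded adult sample it was 2.44 and not called (adjusted p = 0.277), in a fit that called 49 genes, or 6.36%.

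Crip1 was 3.13-fold higher in P-ERK1/2 High than in adult microglia, a log2 difference of 1.65 (SE 0.50, 95% interval 0.55 to 2.75, limma adjusted p = 0.019). Without sample 7 it was 2.19 (adjusted p = 7.0e-05), in a fit where 31.4% of genes were called higher. The call with all samples was not firm, since it was lost when any adult sample or P-ERK1/2 High sample 2, 5 or 8 was left out (1.41 to 1.70), and also with equal sums (0.23), quantile normalization (0.92), median-of-ratios scaling (1.26) and background subtraction (1.77). It was lost too in the plain test with unequal variances and with the excluded adult sample (1.05). Ptx3 showed a difference of -0.07 (SE 0.58, 95% interval -1.35 to 1.20, adjusted p = 0.921), an interval that leaves room for more than a 2-fold change in either direction, and its sign changed with the scaling. Both comparisons reuse samples that chose the genes, adult samples here and P-ERK1/2 Low samples above.

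**Figure D2:**
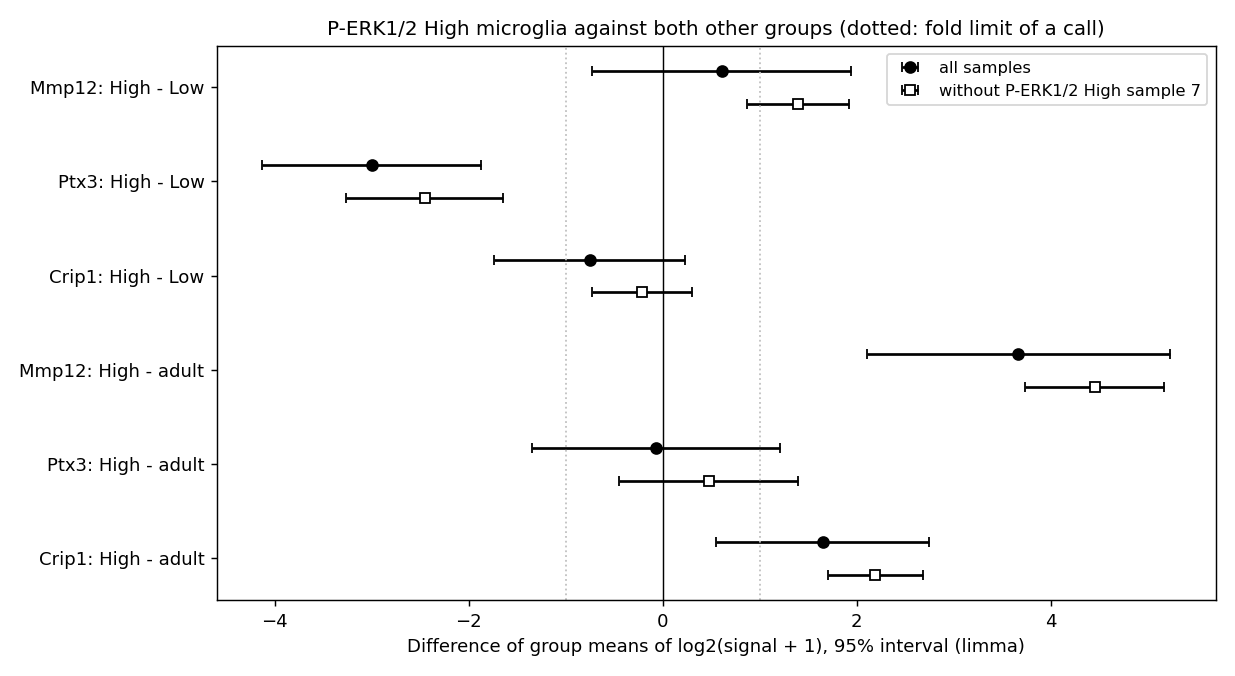
Differences of group means of log2(signal + 1), as P-ERK1/2 High minus P-ERK1/2 Low (upper 3 genes) or minus adult microglia (lower 3), with 95% intervals from limma, with all samples (filled) and without P-ERK1/2 High sample 7 (open); dotted lines mark a log2 difference of 1 in either direction. Ptx3 lies at -3.00 and -2.46 against P-ERK1/2 Low, and Mmp12 moves from 0.61 to 1.39; these values follow the deposited scaling.

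The scaling changed how far P-ERK1/2 High lay from the other groups. In P-ERK1/2 High minus P-ERK1/2 Low, the median difference of all 770 genes was 0.26 with the deposited values, -0.76 with equal sums, 1.02 with the 6 most stable housekeeping genes and 2.14 with the positive controls. Relative to the 0.26 of the median gene, Mmp12 at 0.61 lay slightly above and Ptx3 at -3.00 far below. As shares of all gene counts, which do not depend on housekeeping genes, Mmp12 took 0.845% to 1.32% in adult, 6.15% to 6.62% in P-ERK1/2 Low samples and 6.27% to 8.56% in P-ERK1/2 High samples other than sample 7, which stood at 1.16% (Wilson 95% interval 1.14% to 1.19%). Crip1 took 0.0603% to 0.0617% in adult, 0.205% to 0.306% in P-ERK1/2 Low samples and 0.0963% to 0.0988% in P-ERK1/2 High samples other than sample 7 at 0.0293%. Ptx3 took 0.0206% to 0.0246% in adult, 0.122% to 0.150% in P-ERK1/2 Low samples and 0.00307% to 0.0199% in P-ERK1/2 High samples. Background alone corresponded to 0.00997% to 0.0297% of counts in adult and 0.00245% to 0.00487% in P-ERK1/2 High samples, so the Ptx3 shares of these groups are not compared.

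**Figure D3:**
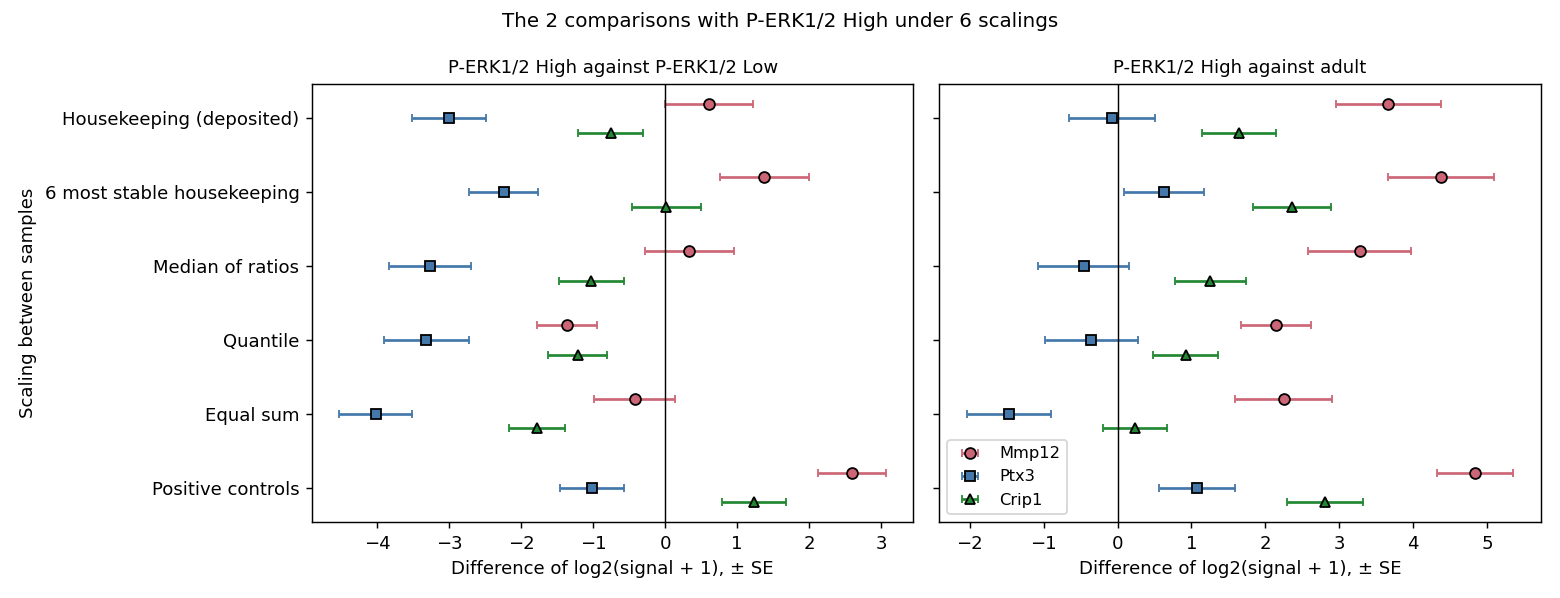
Differences of log2(signal + 1), with standard errors as bars, for Mmp12, Ptx3 and Crip1 in P-ERK1/2 High minus P-ERK1/2 Low (left) and in P-ERK1/2 High minus adult microglia (right) under 6 ways of scaling the samples. Ptx3 is below 0 in all 6 on the left and Mmp12 above 0 in all 6 on the right, while Mmp12 on the left runs from -1.36 to 2.60.

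Ratios between the genes in the same sample do not depend on a scaling factor, and they are described without a test because they were chosen after the values were seen. Mmp12 over Crip1 was 13.7 to 21.8 in adult, 21.6 to 30.5 in P-ERK1/2 Low samples and 39.6 to 86.7 in P-ERK1/2 High samples. Sample 7 was the lowest P-ERK1/2 High sample at 39.6 but still above every P-ERK1/2 Low sample. Ptx3 over Crip1 was 0.333 to 0.400 in adult, 0.491 to 0.593 in P-ERK1/2 Low samples and 0.0486 to 0.207 in P-ERK1/2 High samples, and the values of P-ERK1/2 Low lay above those of both other groups. Because Ptx3 was below background in adult sample 1 and in sample 7, their ratios are only upper bounds, at most 0.482 and 0.166 when Ptx3 is set to background, and the former cannot be placed against P-ERK1/2 High. Mmp12 over Ptx3 was 36.0 to 63.2 in adult, 44.0 to 51.4 in P-ERK1/2 Low samples and 315 to 1782 in P-ERK1/2 High samples. For adult sample 1 the ratio is only a lower bound, at least 28.4 with Ptx3 raised to background, so no order of adult and P-ERK1/2 Low samples is read. P-ERK1/2 High samples lay above P-ERK1/2 Low in this ratio, also with the bound of at least 239 for sample 7. The ratio compares 1 gene's signal with another's between samples and says nothing of which gene is more abundant. In excluded sample 11, Mmp12 over Crip1 was 91.1.

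**Figure D4:**
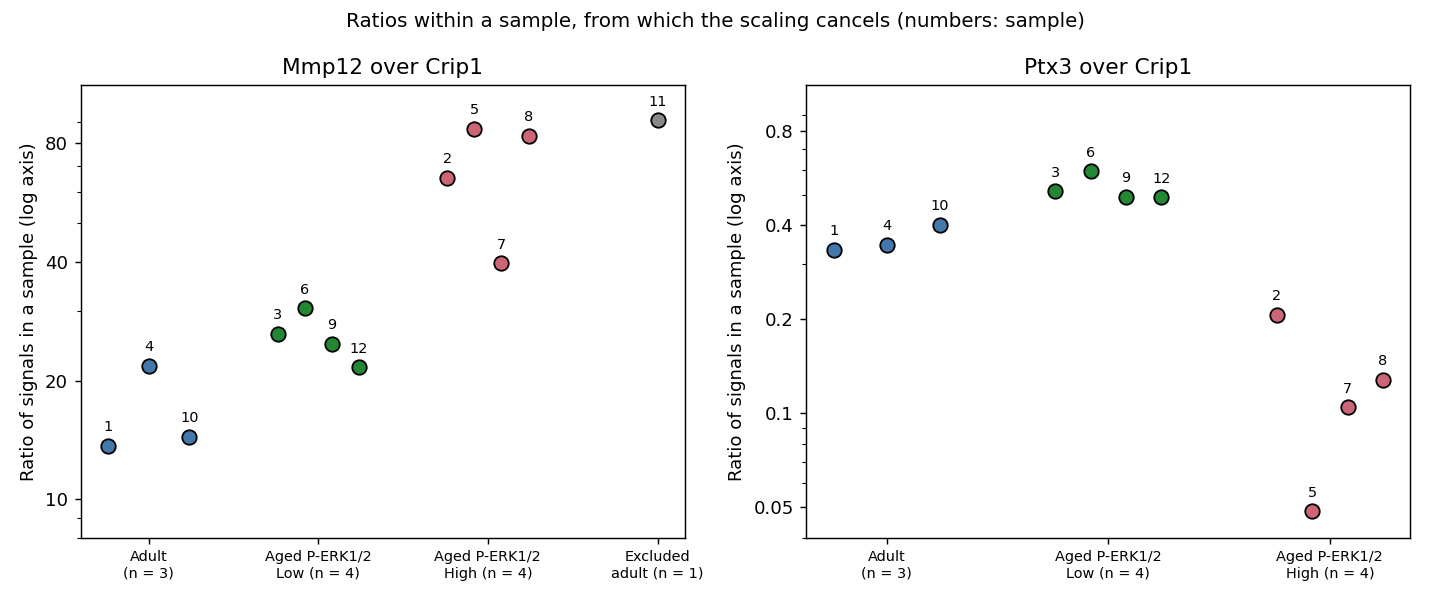
Ratio of Mmp12 to Crip1 (left) and of Ptx3 to Crip1 (right) within each sample, on log axes, by group and with sample numbers; the excluded adult sample, whose Ptx3 is listed at 1, is shown on the left only. The 4 P-ERK1/2 High samples lie above all P-ERK1/2 Low samples on the left (39.6 to 86.7 against 21.6 to 30.5) and below them on the right (0.0486 to 0.207 against 0.491 to 0.593); on the right, adult sample 1 and P-ERK1/2 High sample 7 have Ptx3 below background and stand for upper bounds.

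The 3 genes ran together across adult and P-ERK1/2 Low samples, as their choice fixed, and parted when P-ERK1/2 High samples were added. Over 11 samples, Pearson's r of the log2 values was 0.89 between Mmp12 and Crip1, 0.73 between Ptx3 and Crip1 and 0.38 between Mmp12 and Ptx3. These points share the housekeeping scaling and fall into 3 groups, so the values describe the group pattern. The 4 genes most like Mmp12 over the 11 samples were Ifitm3 (r = 0.99), Cd72 (0.98), Tnfrsf1a (0.97) and Msr1 (0.97). Ifitm3 encodes an interferon-induced membrane protein, Cd72 a C-type lectin receptor, Tnfrsf1a a TNF receptor and Msr1 a scavenger receptor. The 4 most like Ptx3 were C5ar1 (0.98), the receptor of complement C5a, Dab2 (0.98), an endocytic adaptor, Itga6 (0.97), an integrin chain, and the cytokine Tnf (0.96). With excluded sample 11 added these fell to 0.69 to 0.76. The 4 most like Crip1 were Lrrc25 (0.99), a leucine-rich repeat protein of myeloid cells, Mcm5 (0.98), a subunit of the replicative helicase, Il1rn (0.97), the IL-1 receptor antagonist, and Ldha (0.97), a lactate dehydrogenase chain.

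**Figure D5:**
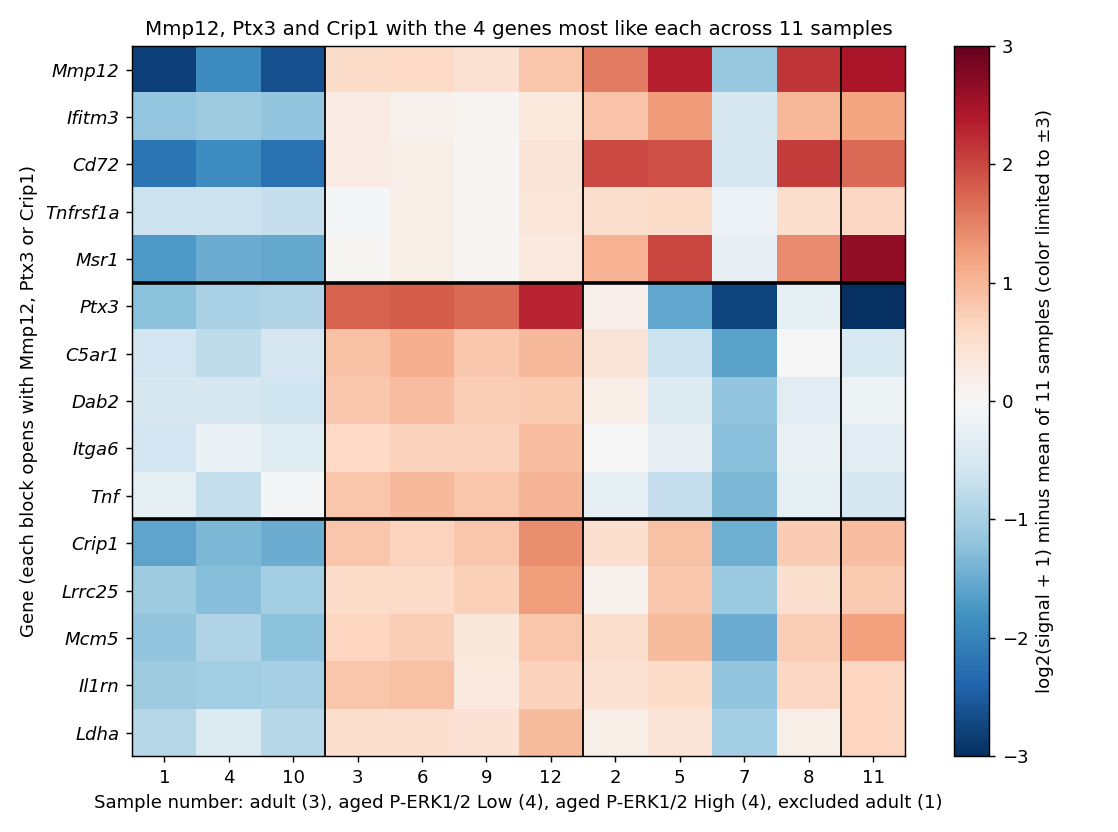
Log2(signal + 1) of Mmp12, Ptx3, Crip1 and the 4 genes most like each, as the difference from the gene's mean over the 11 samples of the comparisons, in each of the 12 samples (columns by group; color limited to 3 log2 units either way). P-ERK1/2 Low samples are above the mean throughout for Ptx3 and its 4 genes, and sample 7 is below the mean in every row.

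The panel held 7 other matrix and lysosomal proteases beside Mmp12. When P-ERK1/2 High was set against adult microglia, 1 was called higher and 1 lower (29.2% and 7.66% of all genes), with a median of 0.19 against 0.35 over all genes. For P-ERK1/2 Low against adult microglia 0 were called higher and 2 lower (8.05% and 2.73% of all genes), Ctse and Ctsw, both above background in 0 of 4 P-ERK1/2 Low samples. Mmp14, a membrane-bound matrix metalloproteinase, was higher in P-ERK1/2 High than in P-ERK1/2 Low (log2 difference 1.29, SE 0.21, limma adjusted p = 0.00045). Ctse, an aspartic protease, was also called there, but with its P-ERK1/2 Low values raised to background the rise is bounded only at 1.10-fold or more. Lgmn, the lysosomal asparaginyl endopeptidase, was lower there (mean signal 2208 against 4226, adjusted p = 0.0090). Timp1, which inhibits matrix metalloproteinases, had a mean signal of 480.5 in adult, 1054 in P-ERK1/2 Low and 841 in P-ERK1/2 High microglia. Timp1 was called higher in P-ERK1/2 Low than in adult microglia (1.18, SE 0.30, limma adjusted p = 0.023), where 8.05% of all genes were. Of the 7 protease inhibitors, 1 more was called there, Cst7, a cystatin, as lower, but it was above background in 0 of 3 adult and 0 of 4 P-ERK1/2 Low samples and no difference is read from it.

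Complement components and receptors and other pentraxin partners were set beside Ptx3. The C1q chains C1qa, C1qb and C1qc, to which PTX3 binds, were called in none of the comparisons. Of the 14 genes in this list, 3 were called lower in P-ERK1/2 High than in P-ERK1/2 Low and 1 higher (9.61% and 28.2% of all genes), with a median of 0.28 against 0.26 over all genes. The lower ones were C5ar1 (-1.41, SE 0.37, limma adjusted p = 0.0067) and the Fc gamma receptors Fcgr1 (-1.09, adjusted p = 0.00095) and Fcgr2b (-1.39, adjusted p = 0.0052). Without sample 7, Fcgr1 was at -0.99 and no longer beyond the fold limit. The higher one was Nptx1, a neuronal pentraxin (1.27, adjusted p = 0.0059). When P-ERK1/2 Low was set against adult microglia, 4 of the 14 passed as higher and 0 as lower (8.05% and 2.73% of all genes), Nptx1 (1.20) and C5ar1 (1.55) among the higher ones. For P-ERK1/2 High against adult microglia these counts were 3 and 0 (29.2% and 7.66% of all genes).

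A list of 16 inflammatory genes was drawn up by general knowledge as inducible by IL-1, TNF or Toll-like receptors, the signals known to induce Ptx3. Which signals act on each of these genes here was not tested. Of the 16, 4 were called higher in P-ERK1/2 High than in P-ERK1/2 Low and 3 were called lower (28.2% and 9.61% of all genes), with a median of 0.65 against 0.26 over all genes. The lower ones, as Ptx3 was, were the cytokine Tnf (-1.57, SE 0.26, limma adjusted p = 0.00045) and the chemokines Ccl4 (-1.23, adjusted p = 0.0012) and Ccl7 (-1.84, adjusted p = 0.018). Ccl7 was at -1.12 without sample 7, where its signal was 13.5 and below background, and stayed called. The higher ones were Ccl2 (1.59), Ptgs2 (2.10), which encodes the inducible cyclooxygenase, Il1a and Cxcl9. Il1a was above background in 1 of 4 P-ERK1/2 Low samples, and its rise was at least 4.07-fold with those values raised to background. Cxcl9 was above background in 0 of 4 P-ERK1/2 Low samples, and no fold is given for it. In P-ERK1/2 Low against adult microglia 7 were called higher, Tnf, Ccl4 and Ccl7 among them, and 2 lower (8.05% and 2.73% of all genes), Il1a and Ccl5, each above background in 1 of 4 P-ERK1/2 Low samples.

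Actin-binding and cytoskeletal genes were set beside Crip1, since LIM-domain proteins often act at the cytoskeleton. Of 9, 5 were called higher in P-ERK1/2 High than in adult microglia and 0 lower (29.2% and 7.66% of all genes), with a median of 1.62 against 0.35 over all genes. Within the aged populations, where Crip1 was not called, 4 of the 9 were called higher in P-ERK1/2 High and 2 lower (28.2% and 9.61% of all genes). The higher ones were Vim (2.98, SE 0.24, limma adjusted p = 6.1e-06), Msn (2.37, adjusted p = 1.0e-05), S100a10 (1.47) and Stmn1 (1.57). Fscn1 (-1.31), an actin-bundling protein, and Was (-1.72), an activator of actin assembly, were called lower. In P-ERK1/2 Low against adult microglia 4 of the 9 were called higher (8.05% of all genes), Fscn1, S100a10, Stmn1 and Was. Without sample 7, the listed genes named for the aged populations stayed called apart from Fcgr1, and Gsn (1.08) and the inflammatory gene Nfkbia (1.13) were called higher as well. Against adult microglia, Il1rn (1.57), Timp1 (1.14) and Ccl7, which was at background in adult samples, were then called higher in P-ERK1/2 High.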

How the data were processed

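The 12 samples were mapped by their labels to P-ERK1/2 High, P-ERK1/2 Low, adult and 1 excluded adult sample. The authors counted RNA on the nCounter, normalized it in nSolver (version not given in the sources used here) and deposited a normalized signal per gene and sample. In these signal values the geometric mean of the 13 housekeeping genes is equal in all samples, and the 8 negative and 6 positive control probes are unscaled counts. Dividing by the factor of each sample gave counts whole to within 0.1 for 99.8% of gene values, used for depth, shares and background (mean plus 2 SD of the negative probes). The Wilson intervals cover counting error only.

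Groups were compared pairwise with limma 3.58.1 in R 4.3.3 on log2(signal + 1) of all 770 genes, with Benjamini-Hochberg adjustment over 770 genes and a call at p under 0.01 and a log2 difference beyond 1. Other scalings, a pseudocount of 20, a filter on low values, other tests and leaving out samples were tried as alternatives. Where samples of the dimmer group were below background, a lower bound of the fold was computed with those values raised to it. Such a bound concerns background only and covers neither the spread between samples nor the choice of scaling. Tests were tried on simulated data. Named genes were Mmp12, Ptx3 and Crip1, the 4 genes of highest Pearson's r with each, genes next to them in rank, and called or defining genes of the lists. The 3 genes and the lists were chosen with earlier results of these data known. Positions and sequences are from RefSeq on GRCm38.p6.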

Additional observations from a re-analysis of the deposited data

Results flagged for a closer look

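Of 30 groups of 4 samples tested over 15 genes (the 3 genes and those most like them), 6 had a sample whose gap to its nearest neighbour exceeded Dixon's 95% limit for 4 samples, a limit that chance passes in about 1 in 20 groups. The likeness of 12 of these genes was measured over samples that include sample 7, so the flags are not independent of each other and their number is not read against chance. In P-ERK1/2 High these were sample 7 for Crip1 (214.48), Cd72 (265.01), Il1rn (81.97), Ldha (2390.71) and Tnfrsf1a (577.18), each the lowest of its group. In P-ERK1/2 Low it was sample 12 for Ldha (9332.61), the highest of its group. Mmp12 and Ptx3 did not pass this limit in sample 7.

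The excluded adult sample 11, which enters no comparison, had Mmp12 at 102170 and Crip1 at 1121.6, both above every other adult sample. Mmp12 in sample 11 was also above every sample of the aged groups.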

How the results depend on the processing

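Of 114 recomputed differences of the 3 genes in the comparisons with P-ERK1/2 High, 85 kept their direction and side of the threshold. Differences below are on the log2 scale. With the scaling to equal sums, Mmp12 in P-ERK1/2 High against Low was -0.42, and Crip1 was -1.78 there and 0.23 against adult. Against adult in the same scaling, P-ERK1/2 Low differed by 2.67 for Mmp12, 2.55 for Ptx3 and 2.01 for Crip1. After quantile normalization Mmp12 was -1.36 in High against Low and 3.50 in Low against adult, and Crip1 was 0.92 in High against adult and 2.13 in Low against adult. With the 6 most stable housekeeping genes Crip1 was 0.017 in High against Low and Ptx3 0.63 in High against adult. Median-of-ratios scaling gave 1.26 for Crip1 in High against adult.

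Positive-control scaling and background subtraction, like the ratios within a sample and the bounds from values raised to background, were chosen after seeing the data. Positive-control scaling gave 2.60 for Mmp12, -1.02 for Ptx3 and 1.23 for Crip1 in High against Low, with 658 genes called, all higher, 1.08 for Ptx3 in High against adult, and 2.24, 2.09 and 1.58 for Mmp12, Ptx3 and Crip1 in Low against adult, with 221 genes called, 213 of them lower. Background subtraction gave 1.77 for Crip1 in High against adult and 3.36 for Ptx3 in Low against adult. A pseudocount of 20 gave 0.016 for Ptx3 in High against adult and 2.66 in Low against adult.

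A plain test with unequal variances called 189 genes in High against Low, 173 in High against adult and 54 in Low against adult, and it lost the calls of Ptx3 (-3.00), Mmp12 (3.67) and Crip1 (1.65). With the excluded adult sample, 49 genes were called in High against adult and 34 in Low against adult. There Mmp12, Ptx3 and Crip1 stood at 2.44, 1.24 and 1.05 in High against adult and at 1.84, 4.25 and 1.80 in Low against adult.

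Leaving out 1 sample at a time, Mmp12 in High against Low ranged from 0.24 to 1.39, called only without P-ERK1/2 High sample 7. Ptx3 in High against adult ranged from -0.49 to 0.47, with its sign turned without sample 5 (0.07) or 7 (0.47). Crip1 in High against adult ranged from 1.41 to 2.19, with its call lost without P-ERK1/2 High sample 2, 5 or 8 or adult sample 1, 4 or 10. The cause of these changes was not tested. No paired analysis was possible because the groups share no replicate numbers, and shared animals are not stated. The count test planned on the recovered counts was not run. Ptx3 at 20 to 74 counts in its lowest samples is limited by background, while Mmp12 had at least 1191 counts in every sample.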
